A study of Homo sapiens with 6 samples.

Results

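Small RNA host genes are transcribed into long RNAs whose introns or hairpins carry small nucleolar RNAs (snoRNAs) or microRNAs. They were described here in the THP-1 line, which was established from a human monocytic leukaemia. Genes were taken from the deposited count table by symbol: SNHG with a number, MIR with a number and letters ending in HG, plus GAS5 and DLEU2, each with a summed count of at least 10 over the 6 libraries. This gave 42 genes of 26347 in the table, 24 snoRNA hosts and 18 microRNA hosts. Members were chosen by symbol and by this summed count, so their levels are given as a description. The difference between treatments did not enter the rule, but the members were chosen with earlier results of these data known. Just inside the limit were SNHG27 with 19 counts, SNHG9 with 30 and MIR646HG with 39. Just outside were SNHG22 and MIR3945HG with 7 counts each and MIR548XHG with 6, and 23 symbols of the same kind fell below the limit.

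The cells were grown in RPMI with fetal bovine serum and transfected either with a negative control microRNA mimic (3 libraries) or with a miR-125a-5p mimic (3 libraries). Total RNA was taken at 24 h. Macrophages are named in the series title, whereas the samples are labelled as monocytic cells and no differentiating agent is listed. Transfections were done in triplicate, and nothing says whether these were separate cultures or days. The p-values therefore reflect the spread among 3 libraries a group, and that spread may be technical.

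Depth ran from 8256149 to 10257791 counts per library. The 12 monocytic markers (CD14, CSF1R, LYZ, SPI1 and others) summed to 2842 to 3140 CPM (counts scaled to a common library total) in control and 2813 to 2987 CPM in miR-125a-5p libraries. CSF1R and CD68 were the highest, at means of 748 and 698 CPM, and MPO the lowest, at 2.27 CPM. B cell markers summed to 54.0 to 86.5 CPM in control and 45.0 to 62.7 CPM in miR-125a-5p libraries, with PAX5 at a mean of 57.1 CPM. T cell, erythroid, fibroblast and epithelial markers each summed to at most 4.71 CPM. On the first principal component, control library 1 lay at -38.2 and the remaining libraries between 1.15 and 16.3. Fold changes of the named members are also given as ranges over the fits with 1 library left out.

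In most snoRNA hosts the snoRNAs lie in introns and are trimmed out of the spliced lariat by exonucleases, while the spliced exons are exported. Several of these spliced RNAs, GAS5 and SNHG1 among them, start with a pyrimidine tract like that of ribosomal protein messengers and are degraded by nonsense-mediated decay when ribosomes translate them. MicroRNA hosts are instead cut by the nuclear enzyme Drosha, which releases a hairpin that Dicer trims to the mature microRNA. A spliced host RNA therefore reports on transcription and stability of the host, not directly on the amount of its small RNA.

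The microRNAs encoded in these hosts are shown first, because the treatment itself was a microRNA and the seeds show which families the hosts supply. Mature sequences are from RefSeq (GRCh38.p14), 5′ to 3′, with the seed (bases 2 to 8) in capitals. The first line is the natural miR-125a-5p, encoded on chromosome 19 from 51693268 to 51693291 on the plus strand.
miR-125a-5p: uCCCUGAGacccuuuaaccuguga
miR-17-5p (MIR17HG): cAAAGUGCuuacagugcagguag
miR-20a-5p (MIR17HG): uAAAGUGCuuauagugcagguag
miR-19a-3p (MIR17HG): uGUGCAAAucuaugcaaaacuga
miR-19b-3p (MIR17HG): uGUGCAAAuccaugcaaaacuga
miR-15a-5p (DLEU2): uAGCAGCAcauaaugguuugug
miR-16-5p (DLEU2): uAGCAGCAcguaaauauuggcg
miR-195-5p (MIR497HG): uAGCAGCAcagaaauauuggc
miR-497-5p (MIR497HG): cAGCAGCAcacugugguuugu
miR-155-5p (MIR155HG): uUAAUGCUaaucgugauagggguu

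For 17 hosts, 28 precursors with 51 mature sequences were matched, and these held 45 different seeds. MIR2052 and MIR3667 were not among these precursors, so their seeds were not compared. Sequences on chromosome 8, where MIR2052HG lies, had been left out. The seed AGCAGCA was shared by 4 microRNAs of 2 hosts on different chromosomes, DLEU2 and MIR497HG. Within MIR17HG, the host of the miR-17-92 cluster, miR-17-5p and miR-20a-5p shared AAAGUGC, and miR-19a-3p and miR-19b-3p shared GUGCAAA. None of the 51 (0) carried CCCUGAG, the seed of miR-125a-5p.

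Most of the counts of the members fell on snoRNA hosts, with no correction for transcript length. The 42 genes together took 1198 ± 77.9 CPM (SD, n = 3) in control and 1168 ± 32.9 CPM (SD, n = 3) in miR-125a-5p libraries. Of the control sum, snoRNA hosts made up 85.7% and microRNA hosts 14.3%. GAS5, SNHG32 and SNHG1 alone made up 40.3% of it. All libraries are bulk RNA, so fewer expressing cells and less RNA per cell cannot be told apart. CPM here are scaled by library totals adjusted with the trimmed mean of M-values.

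GAS5, growth arrest-specific transcript 5 and host of box C/D snoRNAs, is annotated by GENCODE 29 at chr1:173863900-173868882, minus strand (GRCh38). It stood at 207, 187 and 206 CPM in control libraries 1, 2 and 3 and at 193, 198 and 197 CPM in miR-125a-5p libraries 1, 2 and 3. The miR-125a-5p libraries lay inside the control range.

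SNHG32, listed as C6orf48 in older annotation, hosts SNORD48 and SNORD52 in the class III region of the major histocompatibility complex. It had 204, 144 and 167 CPM in control and 158, 158 and 141 CPM in miR-125a-5p libraries. Control library 1 was the highest and the groups overlapped. SNHG1 hosts SNORD22 and SNORD25 to SNORD31 at chr11:62851988-62855914, minus strand. It had 123, 103 and 107 CPM in control and 108, 91.3 and 100 CPM after miR-125a-5p, again highest in control library 1.

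SNHG16, host of SNORD1A, SNORD1B and SNORD1C, had 111, 87.3 and 96.2 CPM in control and 105, 103 and 105 CPM in miR-125a-5p libraries. SNHG29, host of SNORD49A, SNORD49B and SNORD65, had 82.7, 88.0 and 88.1 CPM in control and 92.4, 84.7 and 105 CPM in miR-125a-5p libraries. For these genes the groups overlapped as well. SNHG28 had 79.0, 75.3 and 64.5 CPM in control and 75.2, 74.9 and 63.6 CPM in miR-125a-5p libraries. RefSeq lists 0 small RNA genes with a SNORD, SNORA, SCARNA or MIR symbol inside it.

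SNHG3, host of SNORA73A and SNORA73B next to RCC1, had 78.9, 63.9 and 60.8 CPM in control and 71.2, 66.4 and 60.8 CPM in miR-125a-5p libraries. SNHG5, host of SNORD50A and SNORD50B, had 70.7, 60.0 and 54.0 CPM in control and 60.5, 53.8 and 52.1 CPM in miR-125a-5p libraries. Control library 1 was again the highest for each, and the groups overlapped.

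MIR17HG had the highest mean CPM of the microRNA hosts. It lies on the plus strand of chromosome 13 and encodes the oncogenic miR-17-92 cluster. Its level was 54.3, 57.4 and 59.5 CPM in control and 69.6, 53.0 and 56.5 CPM in miR-125a-5p libraries, so that only miR-125a-5p library 1 lay above the controls. DLEU2, host of miR-15a and miR-16-1 in a region often deleted in chronic lymphocytic leukaemia, had 38.5, 44.4 and 33.1 CPM in control and 39.2, 38.6 and 40.8 CPM in miR-125a-5p libraries. The miR-125a-5p values lay within the control range.

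MIR155HG, source of the inflammation-linked miR-155, was low in these cells, at 9.32, 6.63 and 4.97 CPM in control and 7.63, 8.70 and 8.26 CPM in miR-125a-5p libraries. MIR22HG, source of miR-22, held only 63 counts over all 6 libraries, at 0.981, 2.01 and 1.22 CPM in control and 1.17, 1.3 and 0.359 CPM in miR-125a-5p libraries. Among the other microRNA hosts were MIR570HG at a mean of 19.97 CPM over the 6 libraries, MIR497HG at 7.91, MIR23AHG at 7.72, MIR4453HG at 7.54 and MIR600HG at 6.84 CPM. The remaining snoRNA hosts ran from SNHG6 at a mean of 31.9 CPM and SNHG17 at 25.8 CPM down to SNHG9 at 0.528 and SNHG27 at 0.359 CPM.

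**Figure D1:**
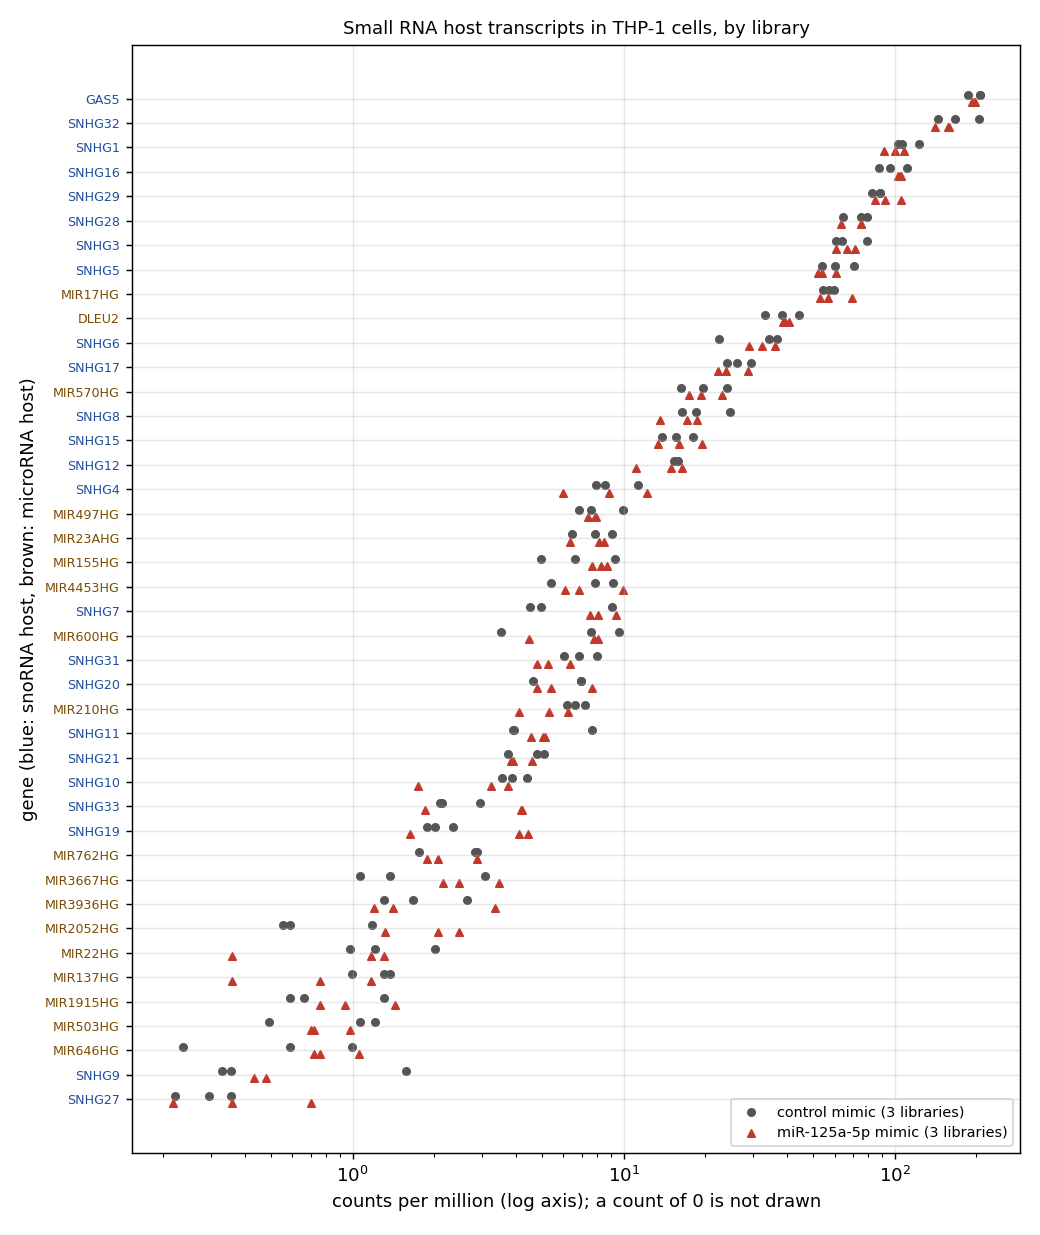
CPM on a log axis for the 42 host genes in each of the 6 libraries, ordered by mean level. Circles are control and triangles miR-125a-5p libraries, and blue names are snoRNA hosts and brown names microRNA hosts. The points of each group overlap for every tested gene except MIR2052HG, near the bottom.

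Levels of different genes can be compared only per length, and 39 of the 42 genes had a single match in GENCODE 29. Per kilobase of all annotated exons, SNHG32 led with a level of 90.01 CPM per kb, followed by GAS5 with 54.5 and SNHG1 with 28.1 CPM per kb. The first microRNA host in this order, MIR17HG, had 16.7 CPM per kb. The order depends on the length used. Per kilobase of the median annotated transcript, GAS5 led at a level of 288 CPM per kb, before SNHG32 at 217 and SNHG1 at 141 CPM per kb. Among microRNA hosts DLEU2 then came first at 30.9 CPM per kb, before MIR17HG at 28.7 CPM per kb. For GAS5 the union of exons was 3631 bases and the median transcript 688.

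After the miR-125a-5p mimic, no host transcript passed the test. Of the 42 genes, 37 had enough counts to be tested. With edgeR's quasi-likelihood test, adjusted by Benjamini-Hochberg over 14731 genes, 0 of the 37 were called higher (0% of all tested genes) and 0 lower (0.0272%). The smallest adjusted p among them was 0.775. At an unadjusted p under 0.05, 1 of the 37 passed, against 5.92% of all tested genes. That gene was higher and 0 members were lower, against 2.69% and 3.22% of all tested genes. With limma voom and with edgeR's likelihood ratio test 0 of the 37 were called as well. DESeq2 called 0 of the 17 members to which it gave an adjusted p, and gave none to the other 20, MIR2052HG among them.

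Fold changes were negative for 15 of 22 tested snoRNA hosts (68.2%, against 49.8% of all tested genes), with a median log2 fold change of -0.05. Among tested microRNA hosts 8 of 15 were negative (53.3%), with a median of -0.0018. The median over all tested genes was 0.0011. Without control library 1 the median of the snoRNA hosts was 0.01, so its sign rested on that library.

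Intervals were narrow for the abundant hosts. All 9 members with a mean of at least 50 CPM had a 95% interval of the log2 fold change within 0.5 of 0. So had 4203 of all 4393 genes of that level. The 50 CPM limit was chosen after the members' values were seen. GAS5 had a log2 fold change of -0.03 (SE 0.09, 95% interval -0.21 to 0.16, edgeR adjusted p = 0.985). For SNHG29 the log2 fold change was 0.13 (95% interval -0.09 to 0.35), for SNHG16 0.08 (-0.13 to 0.30) and for MIR17HG 0.07 (-0.18 to 0.31). DLEU2 had 0.03 (-0.24 to 0.30). SNHG28 and SNHG3 had -0.03 (-0.27 to 0.20) and -0.04 (-0.28 to 0.21), and SNHG5 had -0.15 (-0.40 to 0.10). Over all 37 members, 14 had an interval within 0.5 of 0 and 28 within 1. Of all 14731 tested genes, 7440 and 12059 had such intervals. A lack of a call does not show that the groups were equal. For the 9 members whose interval reached beyond 1, a change of that size lay within the interval.

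**Figure D2:**
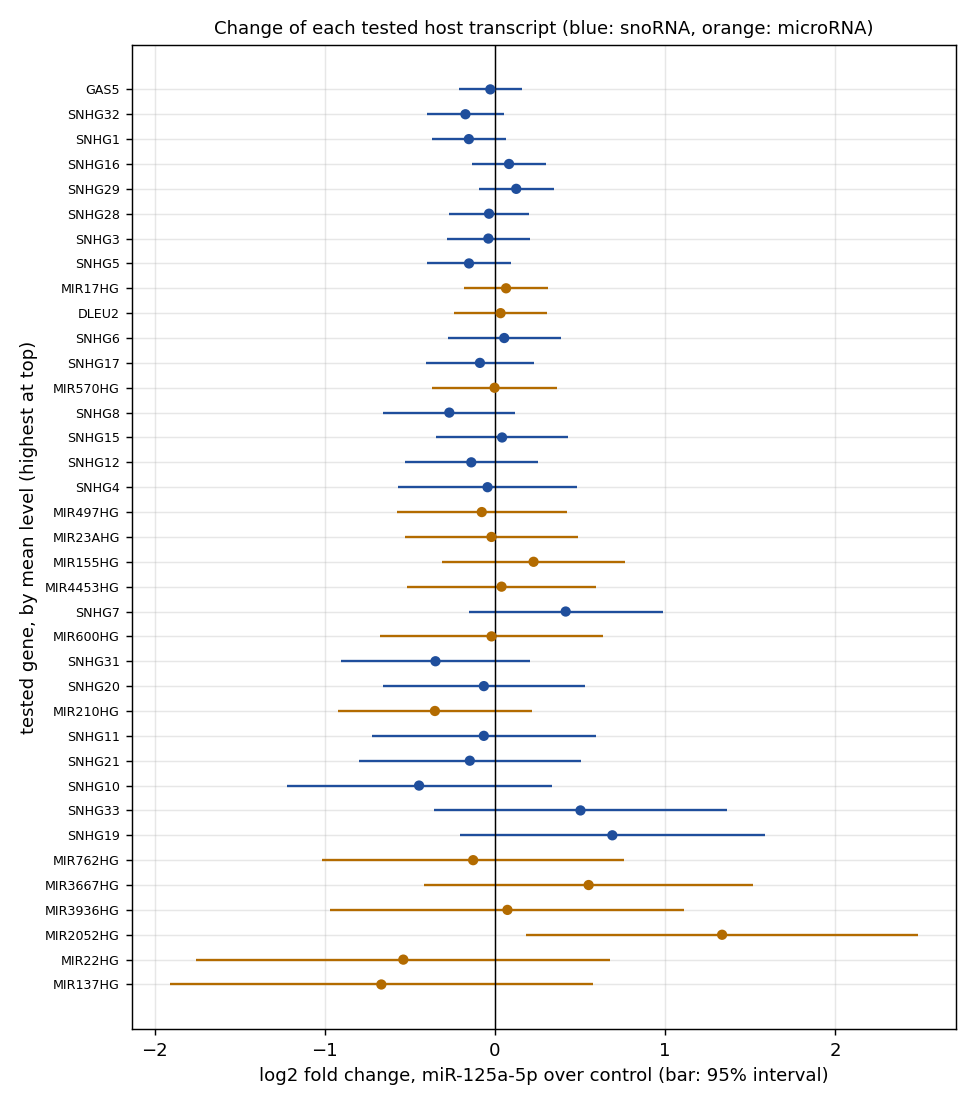
Log2 fold change (miR-125a-5p over control) of the 37 tested host genes, with the 95% interval from edgeR's quasi-likelihood fit, ordered by mean level (blue for snoRNA hosts, orange for microRNA hosts). The intervals widen from GAS5 at the top (-0.21 to 0.16) to MIR137HG at the bottom (-1.91 to 0.58), and MIR2052HG is the 1 gene whose interval leaves out 0.

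Among negative fold changes the smallest unadjusted p belonged to SNHG32, with a log2 fold change of -0.17 (SE 0.11, 95% interval -0.40 to 0.05, edgeR adjusted p = 0.884). SNHG1 followed at -0.15 (95% interval -0.37 to 0.07). SNHG8, host of SNORA24, had 16.4, 18.5 and 24.6 CPM in control and 17.1, 13.6 and 18.7 CPM after miR-125a-5p, a log2 fold change of -0.27 (-0.65 to 0.12). Its control library 3 was the highest of the 6 and the groups overlapped.

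SNHG31 had 6.87, 6.04 and 7.95 CPM in control and 6.34, 4.78 and 5.27 CPM in miR-125a-5p libraries, a log2 fold change of -0.35 (-0.91 to 0.21). MIR210HG, host of the hypoxia-induced miR-210, had 6.18, 7.22 and 6.63 CPM in control and 4.11, 5.33 and 6.23 CPM in miR-125a-5p libraries, also at -0.35 (-0.92 to 0.22). In both, 2 of the 3 miR-125a-5p libraries lay below every control library and the remaining miR-125a-5p library lay within the control range.

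Among positive fold changes MIR2052HG, a chromosome 8 transcript, had the smallest unadjusted p, and it was very low. It held 6, 10 and 5 counts in control and 21, 19 and 11 counts in miR-125a-5p libraries, or 0.589, 1.18 and 0.552 CPM against 2.47, 2.07 and 1.32 CPM. The groups did not overlap, which was seen in 1 of the 37 members and in 11.2% of all tested genes (5.31% with miR-125a-5p higher). Its log2 fold change was 1.34 (SE 0.56, 95% interval 0.18 to 2.49, edgeR adjusted p = 0.775, unadjusted 0.0249), and over the alternatives its adjusted p lay between 0.515 and 0.992.

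SNHG19, host of SNORD60, had 2.36, 2.01 and 1.88 CPM in control and 4.11, 1.63 and 4.43 CPM in miR-125a-5p libraries (log2 fold change 0.69, -0.20 to 1.58). SNHG33 had 2.94, 2.13 and 2.10 CPM in control and 4.23, 1.85 and 4.19 CPM in miR-125a-5p libraries (0.50, -0.36 to 1.36). In each of these, miR-125a-5p libraries 1 and 3 lay above the controls and library 2 below them. SNHG7, host of SNORA17A and SNORA17B, had 9.03, 4.97 and 4.53 CPM in control and 7.52, 9.35 and 8.02 CPM in miR-125a-5p libraries.

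SNHG7 had a log2 fold change of 0.42 (-0.16 to 0.99). MIR3667HG had 1.37, 1.07 and 3.09 CPM in control and 2.47, 3.48 and 2.16 CPM in miR-125a-5p libraries (0.55, -0.41 to 1.52). MIR155HG and MIR22HG were at 0.23 (-0.31 to 0.76) and -0.54 (-1.75 to 0.68). The tested members not yet given with a fold change lay between -0.67 for MIR137HG and 0.07 for MIR3936HG.

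Single libraries moved these values. When each library was left out in turn, SNHG32 ran on the log2 fold change scale from -0.29 (without control library 2) to -0.03 (without control library 1). The same pair of values was -0.21 (without miR-125a-5p library 1) and -0.07 (without control library 1) for SNHG1, and -0.24 (without control library 3) and -0.04 (without control library 1) for SNHG5. SNHG8 ran from -0.39 (without control library 1) to -0.08 (without control library 3), and SNHG16 from 0.0041 (without control library 2) to 0.18 (without control library 1). These members kept their sign, whereas SNHG28, SNHG3, DLEU2 and MIR17HG, all near 0, changed it.

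The low hosts moved further. SNHG7 ran from 0.23 (without control library 3) to 0.80 (without control library 1), MIR155HG from 0.03 to 0.50 with the same libraries left out, and MIR3667HG from 0.29 (without control library 2) to 1.13 (without control library 3). MIR22HG ran from -0.85 (without miR-125a-5p library 2) to -0.17 (without miR-125a-5p library 3). SNHG29, SNHG19 and SNHG33 were highest without miR-125a-5p library 2, at 0.20, 1.03 and 0.80. Their lowest values were 0.03 and 0.45 without miR-125a-5p library 3 for SNHG29 and SNHG19, and 0.32 without miR-125a-5p library 1 for SNHG33. SNHG31 and MIR210HG stayed negative, at -0.47 to -0.24 and -0.50 to -0.21, GAS5 lay between -0.07 and -0.0047, and MIR2052HG between 1.13 and 1.75.

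Control library 1 held the highest level of the 6 libraries for 7 of the 9 members of at least 50 CPM (77.8%, against 22.5% of all genes of that level). The exceptions were SNHG29 and MIR17HG. Over all 37 tested members, control library 1 was highest for 12 (32.4%, against 21.3% of all tested genes). These were 9 of 22 snoRNA hosts (40.9%) and 3 of 15 microRNA hosts (20%). The snoRNA hosts summed to 1122 CPM in control library 1, against 950 and 1006 CPM in the other control libraries and 975 to 1024 CPM in the miR-125a-5p libraries. The microRNA hosts had their lowest sum there, with 163 CPM against 168 to 184 CPM in the other 5 libraries. Beyond leaving this library out, its part in the results was not tested. The spread of single genes between replicate libraries, as edgeR's biological coefficient of variation, had a median of 9.55% for members of at least 50 CPM and 9.04% for all genes of that level.

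**Figure D3:**
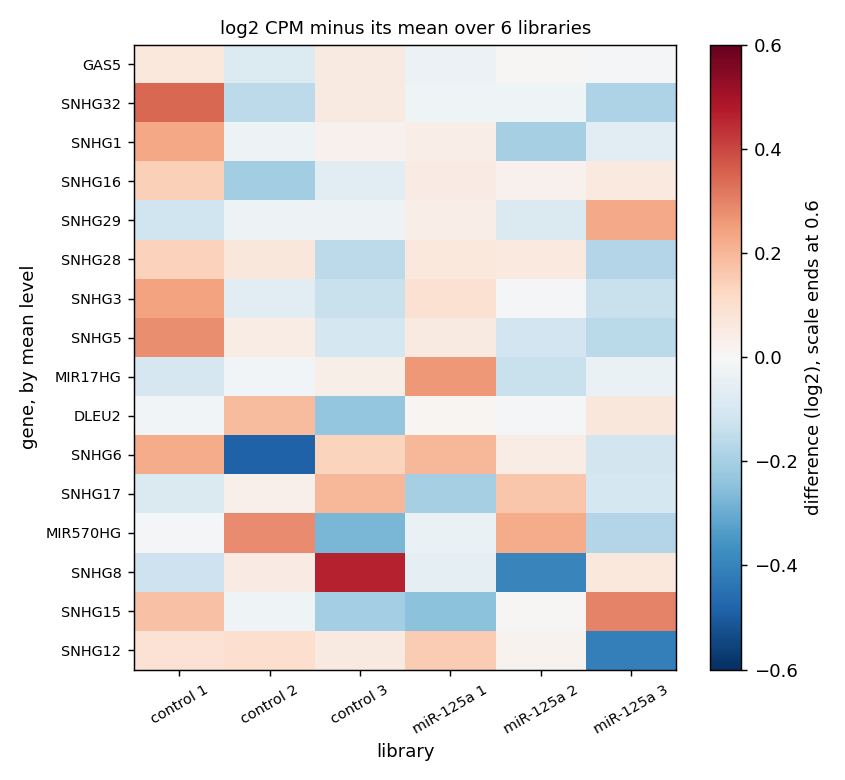
Difference of log2 CPM from its mean over the 6 libraries for the 16 most abundant host genes, red above and blue below the mean. The column of control library 1 is red for SNHG32, SNHG1, SNHG3 and SNHG5, where its CPM were 204, 123, 78.9 and 70.7, and no row separates the 3 control columns from the 3 miR-125a-5p columns.

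The count table also holds rows for the small RNA genes themselves. By position in RefSeq, 86 of them lie inside the members, 56 snoRNA or scaRNA genes in 22 snoRNA hosts and 30 microRNA genes in 19 hosts, SNHG20 among the latter. GAS5 holds 11 of them and SNHG1 holds 8. A row was present for 80 of the 86. All 50 snoRNA and scaRNA rows had at least 1 count, while 12 of the 30 microRNA rows had 0 over the 6 libraries, which allows up to 3 counts. Mature snoRNAs, precursors and unspliced host RNA cannot be told apart in these rows, and the size selection of the libraries was not stated.

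SNORD47, inside GAS5, was the highest, with 117, 109 and 137 counts in control and 121, 113 and 145 counts in miR-125a-5p libraries. MIR570, inside MIR570HG, had 119, 79 and 110 counts in control and 94, 67 and 71 counts in miR-125a-5p libraries. The 6 hairpins of MIR17HG held 46 to 82 counts each over all libraries, whereas MIR23A, MIR27A and MIR24-2 held 0 although their host MIR23AHG held 414. MIR155 held 31 counts, MIR15A 15, MIR16-1 4 and MIR22 1. The MIR646 row held 42 counts and its host MIR646HG 39, so reads over this hairpin were not all counted for the host as well.

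Of these rows 24 could be tested, and 0 passed (edgeR adjusted p of at least 0.843), against 0.0272% of all tested genes. At an unadjusted edgeR p under 0.05 there were 0 of the 24, against 5.92% of all tested genes. Their median log2 fold change was -0.05, and 14 of the 24 were negative, against 49.8% of all tested genes. Rows of 1 host went both ways: inside GAS5, SNORD79 had a log2 fold change of -0.57 (SE 0.34) and SNORD76 of 0.58 (SE 0.44), beside -0.03 for GAS5 itself. SNORD49B was lower in every miR-125a-5p library, at 17, 28 and 12 counts in control and 5, 10 and 10 counts in miR-125a-5p libraries, with CPM groups that did not overlap (log2 fold change -1.11, SE 0.55, edgeR adjusted p = 0.843), beside 0.13 for its host SNHG29. Groups did not overlap for 2 of the 24 rows, SNORD49B and MIR20A, against 11.2% of all tested genes.

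**Figure D4:**
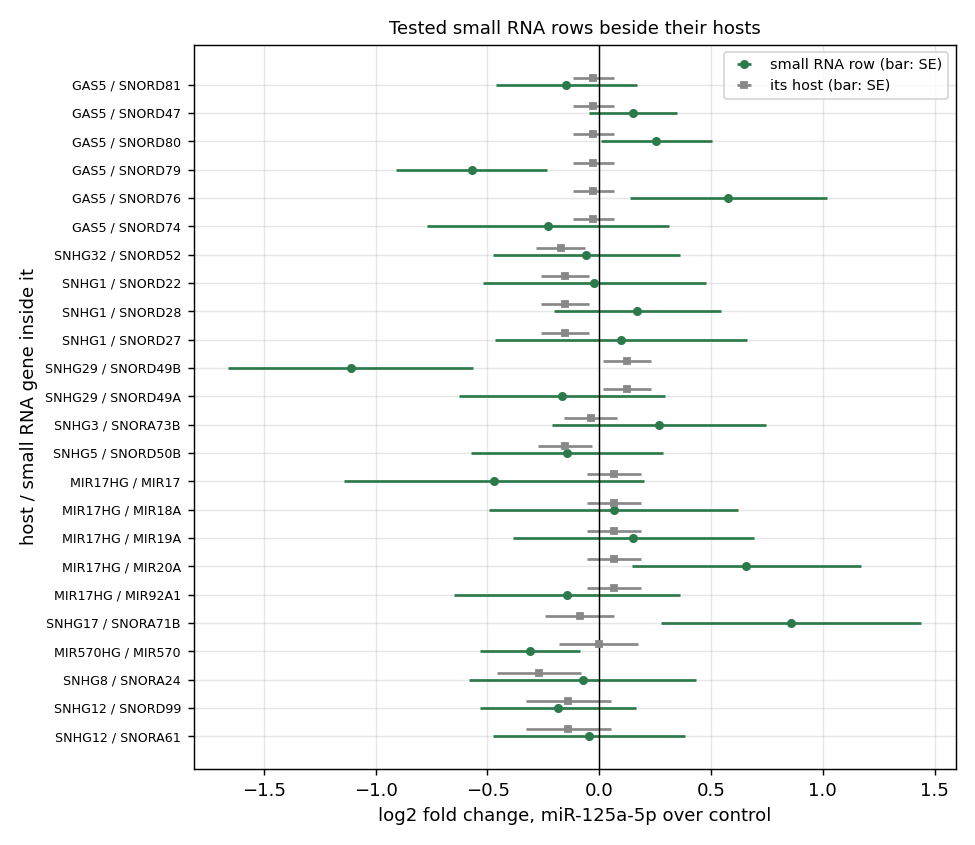
Log2 fold change (miR-125a-5p over control) with its SE for the 24 tested small RNA rows (green circles) and for the host of each (grey squares). Small RNA rows spread from -1.11 for SNORD49B to 0.86 for SNORA71B, while their hosts lie between -0.27 and 0.13.

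Host RNAs are not translated into long proteins, but a microRNA can pair with any exposed RNA. The host transcripts annotated in GENCODE 29 were therefore searched for the complement of the miR-125a-5p seed. The sites were CTCAGGGA (8mer), CTCAGGG (7mer-m8), TCAGGGA (7mer-A1) and TCAGGG (6mer), on the transcript's own strand, and each gene was counted under its best site. Of 34 tested members with a match in GENCODE, 2 held an 8mer (5.9%, against 12.5% of 850 other tested long non-coding genes), 2 a 7mer-m8 (5.9% against 15.8%), 3 a 7mer-A1 (8.8% against 12.5%) and 12 only the 6mer (35.3% against 14.2%). In 15 members (44.1% against 45.1%) these letters were not found. Every annotated transcript of a gene was searched, and members and other genes were not matched for transcript length or number. The 8mer of MIR497HG is shown with neighbouring transcript bases, the site in capitals, as an example of the longest match.
MIR497HG, chr17:7016644-7016651, minus strand: ggacccccggcCTCAGGGAcactggagctg

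Coordinates are on GRCh38. The site was in 1 of the 2 annotated transcripts of MIR497HG, a transcript of 1 exon and so not a spliced one. MIR497HG had 9.91, 7.58 and 6.85 CPM in control and 7.40, 7.83 and 7.90 CPM in miR-125a-5p libraries, a log2 fold change of -0.08 (SE 0.24). Control library 1 was the highest and the groups overlapped. The 7mer-m8 members were SNHG20 at -0.06 and MIR3667HG at 0.55, and the 7mer-A1 members were MIR210HG, MIR22HG and MIR2052HG, at -0.35, -0.54 and 1.34. GAS5, SNHG32, SNHG1, SNHG16 and SNHG3 had only the 6mer. These matches are letters in an annotated transcript, not measured sites.

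The annotated starts were searched for a feature the symbols do not use, an unbroken run of C and T bases between 5 bases before and 15 bases after the start in RefSeq (GRCh38.p14). A run of at least 6 was found in 13 of 21 snoRNA hosts (61.9%) and 1 of 15 microRNA hosts (6.67%). The same run was found at 19.5% of 27305 starts of all genes and at 75.4% of 65 cytosolic ribosomal protein genes. With at least 8 bases a run was found in 4 of 21 snoRNA hosts, 1 of 15 microRNA hosts, 8.13% of all starts and 67.7% of ribosomal protein genes. The window and both lengths were chosen after the members' start sequences had been read. Windows of 30 bases, beginning 10 bases before the start, are shown with the longest run in capitals. They are for the 2 longest runs among these 21 snoRNA hosts and for 4 abundant hosts.
SNHG4, chr5:139274091-139274120, plus strand: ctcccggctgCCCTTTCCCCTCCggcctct
SNHG12, chr1:28581854-28581883, minus strand: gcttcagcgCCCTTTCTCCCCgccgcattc
SNHG32, chr6:31834906-31834935, plus strand: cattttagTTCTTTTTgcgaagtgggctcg
SNHG16, chr17:76557754-76557783, plus strand: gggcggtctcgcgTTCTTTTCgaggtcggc
SNHG1, chr11:62855866-62855895, minus strand: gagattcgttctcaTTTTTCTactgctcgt
GAS5, chr1:173869026-173869055, minus strand: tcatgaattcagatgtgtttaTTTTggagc

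Among these, SNHG4 had 11.3, 7.93 and 8.51 CPM in control and 12.2, 5.98 and 8.86 CPM in miR-125a-5p libraries, and SNHG12 had 15.7, 15.9 and 15.4 CPM against 16.4, 15 and 11.1 CPM. Their groups overlapped, with log2 fold changes of -0.04 (SE 0.26) and -0.14 (SE 0.19). The RefSeq start of GAS5 has a run of only 4 bases. It lies upstream of the GENCODE 29 end of the gene given above, and which start these cells use was not tested.

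The natural copies of the miR-125 family sit in 3 hosts: SPACA6 for miR-125a, MIR100HG for miR-125b-1 and MIR99AHG for miR-125b-2. MIR99AHG held 0 counts over the 6 libraries, which allows up to 3, and MIR100HG held 2, so both fell outside the summed count of 10. SPACA6, a protein-coding gene that is no member by symbol, had 7.26, 6.39 and 6.08 CPM in control and 5.05, 4.78 and 4.91 CPM in miR-125a-5p libraries. All 3 miR-125a-5p libraries lay below all 3 controls, a separation in the lower direction found in 5.9% of all tested genes. The log2 fold change was -0.42 (SE 0.27, 95% interval -0.99 to 0.14, edgeR adjusted p = 0.887), and it lay between -0.48 and -0.35 over the alternatives.

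Related genes of the same pathways, grouped in lists, gave 0 calls by edgeR's test in all 7 lists. Over all tested genes 49.8% had a negative fold change and 5.92% an unadjusted p under 0.05. Among 48 protein-coding snoRNA hosts, mostly ribosomal protein and translation factor genes, 33 had a positive and 15 a negative fold change (31.2% negative), with a median of 0.05. At an unadjusted p under 0.05 were 3 of the 48, a share near that of all genes. The smallest p belonged to EIF4G2, a translation initiation factor, at 1047 ± 116 and 1245 ± 45.0 CPM, and to CCT6A, a chaperonin subunit, at 278 ± 26.4 and 332 ± 33.3 CPM (SD, n = 3 in control and in miR-125a-5p). Among 19 snoRNP proteins and assembly factors 14 were positive and 5 negative (26.3%), with a median of 0.07 and 2 at an unadjusted p under 0.05. SNU13, which binds the kink-turn of box C/D snoRNAs, had 86.7 ± 7.81 and 111 ± 2.88 CPM (log2 fold change 0.35, edgeR adjusted p = 0.455). RUVBL1, an ATPase of snoRNP assembly, had 37.8 ± 4.14 and 50.03 ± 4.27 CPM (0.41, edgeR adjusted p = 0.532).

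Of 18 nonsense-mediated decay factors 10 were positive (median 0.01), with 0 at an unadjusted p under 0.05. XRN1, the exonuclease that degrades decapped RNA, had 455 ± 25.1 and 403 ± 57.4 CPM, and PNRC2, a decapping adaptor, had 109 ± 4.58 and 97.8 ± 4.46 CPM. Of 12 genes of the microprocessor and Dicer steps 8 were positive (median 0.05), and XPO5, which exports microRNA hairpins from the nucleus, had 199 ± 6.67 and 231 ± 11.9 CPM (0.21, edgeR adjusted p = 0.799). DDX5, a helicase of the microprocessor, had 306 ± 6.69 and 342 ± 52.3 CPM.

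The other non-coding snoRNA hosts were ZFAS1, at 95.2 ± 24.3 and 84.6 ± 5.97 CPM, EPB41L4A-AS1 at 6.15 ± 1.38 and 7.34 ± 1.05 CPM and DANCR at 5.85 ± 0.862 and 5.18 ± 0.115 CPM. ZFAS1 was highest in control library 1, at 123 CPM against 76.0 to 91.5 CPM in the other 5 libraries, as were SNHG32 and SNHG1. A list of 9 other microRNA hosts holds SPACA6, which is protein-coding and also stands in the list of protein-coding hosts. Of these 9, 4 were tested: FTX, SPACA6 and MIR4435-2HG had negative fold changes and PVT1 a positive one. FTX, host of miR-374 and miR-545 near XIST, had 19.3 ± 2.94 and 14.4 ± 0.916 CPM (log2 fold change -0.42, unadjusted p = 0.0258, edgeR adjusted p = 0.787). Of 20 tested protein-coding hosts of intronic microRNAs 9 were positive (median -0.03), and PANK3, host of miR-103a-1, had 54.6 ± 5.98 and 69.4 ± 7.0 CPM (0.34, edgeR adjusted p = 0.615).

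Reads of overlapping genes limit some members. In GENCODE 29, over 5% of exon bases overlapped exons of another gene on the same strand for 7 of 39 members and on the opposite strand for 10. The largest same-strand share was 72.9% for SNHG21, which also had 34.1% on the opposite strand. The largest opposite-strand share was 56.4% for MIR762HG. Among hosts described above, the same-strand share was 23.2% for SNHG32 and 5.9% for SNHG3. The opposite-strand share was 30.6% for SNHG16, 12.0% for SNHG29 and 38.2% for MIR497HG. The strand setting of the counting was not given in the sources used here, so reads of these genes and of their partners cannot be told apart.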

How the data were processed

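RNA-seq of 6 THP-1 libraries (3 per group) was analysed from 1 table of raw counts per gene that the authors deposited, in unnormalized whole numbers. The submitters' processing notes list hg19 as the build and name TopHat, bcl2fastq and edgeR. For the counting tool, annotation, strand setting and versions, the entry is: not given in the sources used here. Rows of 4 near-identical MIR1244 copies held the same count in every library. Why they were equal, and how reads matching several copies were counted, was not tested. NCBI gene identifiers were named through RefSeq (GRCh38.p14), which matched 99.5% of 26347 rows, with 0 blank rows. GENCODE 29 (GRCh38) gave lengths, overlaps and transcripts, and its build differs from that of the counts.

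Differences between groups were tested on the counts (R 4.3.3, edgeR 4.0.16): filterByExpr (14731 genes), trimmed mean of M-values, glmQLFit and glmQLFTest without covariates, and Benjamini-Hochberg adjustment at 0.05. The SE is the log2 fold change divided by the square root of F, and 95% intervals use the fit's total degrees of freedom. The code was tested on simulated counts. Hosted small RNA rows, seed matches and starts were searched as descriptions, outside the planned tests, and 1 seed-match result is not reported here; the 50 CPM limit was chosen after values were seen. Alternatives used DESeq2 1.42.0, limma 3.58.1 (voom), other scalings, no filter, a replicate block and each library left out.

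The symbol rule was read literally, so symbols with a second number or a hyphen, such as MIR4435-2HG, were members only in an alternative. The members and lists were chosen with earlier results of these data known. Values per library are given for called members, the 8 with the highest mean CPM, the 5 with the smallest p in each direction, GAS5, DLEU2, MIR17HG, MIR22HG, MIR155HG and hosts of miR-125 copies. MIR497HG, SNHG4, SNHG12 and the small RNA rows named were chosen for their sequence or after their values were seen. Of each list up to 2 genes with the smallest p are named, and all 3 other non-coding snoRNA hosts. Replicate libraries differed by more than sampling noise (chi-square per gene 4.0 to 12.1 within groups), so all 6 were kept as separate samples.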

Additional observations from a re-analysis of the deposited data

How the results depend on the processing

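Over 14 alternatives, 0 of the small RNA host genes were called in either direction, also with the wider reading of the symbols, and each of the 7 related lists had 0 calls in the 13 alternatives run on it. DESeq2 gave no adjusted p to 20 of the 37 tested members and 7 of the 120 tested genes of the lists, so its counts leave these out. The counts over all genes moved. Higher genes went from 0 to 2 with DESeq2, 4 with edgeR's likelihood ratio test and 11 with no count filter, and lower genes from 4 to 11, 17 and 41 in that order. With 1 library left out there were 0 to 2 higher and 3 to 14 lower genes, the most without control library 3. With the replicate number as a block 9 genes were lower and 0 members were called. Whether the replicate numbers pair the libraries is not stated. Deviations of same-numbered libraries correlated at 0.056, 0.014 and -0.016, which cannot show that no day or culture was shared. The cause of these moves was not tested.

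With 1 library left out, the median log2 fold change of the microRNA hosts ran from -0.068 (without miR-125a-5p library 3) to 0.057, that of the snoRNA hosts from -0.09 to 0.01 and that of all members from -0.06 to -0.0074. Of 263 refits of 21 named genes, 257 kept their direction and 6 changed sign, all with 1 library left out: SNHG28 (range -0.115 to 0.0377), SNHG3 (-0.112 to 0.0826), DLEU2 (-0.0655 to 0.141) and MIR17HG (-0.0608 to 0.144). Precision is lowest for the low hosts: 9 of 37 intervals reach beyond 1 on the log2 scale.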
